A study of Mus musculus with 9 samples.

Results

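Interferon-stimulated genes are the genes that cells switch on when type I interferon binds its receptor, and their products detect or block viruses. A list of 39 such genes was followed in RN2 cells, with the interferon regulatory factors left out of it. The list was chosen with earlier results of these data known. A probe set, the group of array probes that reports a gene, counted for a member when the platform annotation gave it that single symbol. By this rule 35 of the 39 members were measured, each by 1 probe set, among 19937 genes in all. Isg15, Gbp2 and Igtp share their probe sets with another symbol, and Ifi44 had no probe set of its own, so these 4 members were not analysed here.

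RN2 cells are murine myeloid leukaemia cells that carry MLL-AF9, a fusion oncogene, together with NrasG12D. All 9 arrays came from cells given 1 ug/ml doxycycline for 96 h to induce a hairpin. Brg1sh_3232, Brg1sh_3364 and Brg1sh_4935 are hairpins against Brg1, the ATPase of the SWI/SNF chromatin remodeller that the gene Smarca4 encodes, with 2 arrays each. The hairpin named Rluc, against Renilla luciferase, is the control, with 3 arrays. The control's cell line name carries the extra term TtTMPV, so the hairpin and whatever that term stands for cannot be told apart. The titles of all 4 groups name RN2 cells, and no second leukaemia was measured. The labels do not call the replicate arrays separate cultures, so a p-value here reflects array-to-array spread, possibly technical only.

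Type I interferon signals through a receptor of the chains Ifnar1 and Ifnar2. The kinases Jak1 and Tyk2 on the receptor then phosphorylate Stat2, which joins Irf9 in the complex ISGF3. ISGF3 binds the interferon-stimulated response element (ISRE) in promoters, and Usp18 and Socs1 dampen the signal. In myeloid cells many of these genes also have a basal level without added interferon.

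The values are log2 expression after RMA, a method that corrects background, normalizes arrays and summarises the probes of a set. Array medians lay between 7.39 and 7.49. Smarca4, the targeted gene, lay between 10.67 and 10.90 in the 6 Brg1 hairpin arrays, against 11.77 to 11.79 in the 3 Rluc arrays, a log2 difference of -1.01 (SE 0.05, limma adjusted p = 2.22e-06). Of 10 genes that mark the labelled line, all measured, 5 rose and 3 fell, where 13.3% of all genes tested rose and 15% fell. The granule enzyme gene Mpo, the myeloid factor gene Cebpa and the integrin gene Itgam averaged 12.93, 9.51 and 13.33 with Brg1 hairpins, and 13.81, 10.11 and 12.94 with Rluc. Levels of different probe sets are not set against each other.

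Most measured members stood higher when Brg1 was suppressed. Over the mean of the 3 hairpins, 26 of 35 members were called, where 28.3% of all genes tested were. Of these 35, 21 rose, where 13.3% of all genes tested rose, and 5 fell, where 15% of all genes fell. Because the list was chosen with earlier results of these data known, these shares are a description and not an independent test. The median log2 change of the 35 members was 0.25, beside -0.000356 over all genes tested, and their changes ran between -0.68 for Ifit2 and 1.90 for Usp18. The genes that rose took in both receptor chains, Stat2, most measured sensors and many effectors, whereas Ifit2, Gbp3, Cmpk2, Trim30a and Trim25 fell. Here a gene rose or fell when limma's Benjamini-Hochberg adjusted p over all 19937 genes was below 0.05. The rises Zbp1, Ifit1, Ifit3, Oas3, Oasl2, Mx1, Mx2, Rsad2, Rtp4 and Xaf1 averaged below the median level of all genes tested. Detection calls were not used to check these dim members. All 6 Brg1 hairpin arrays lay above all 3 Rluc arrays for 16 members (10.7% of all genes did so) and below them for 1, Ifit2 (12.1%). In bulk RNA, fewer cells of a type and less RNA per cell cannot be told apart.

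When the 3 hairpin means served as replicates, 11 of the 21 rises kept their call: Usp18, Ifit3, Ifnar1, Stat2, Dhx58, Adar, Parp9, Sp100, Ifi35, Zbp1 and Ifnar2. Of the 5 falls only Ifit2 kept its call in that fit. Over all genes tested, 6.71% rose and 7.42% fell in that fit, where 13.3% and 15% had done so with the arrays as replicates. Leaving out 1 array at a time left 19 to 21 rises and 2 to 5 falls. The count of falls was 2 without Brg1sh_3232 replicate 1, Brg1sh_3364 replicate 2 or Brg1sh_4935 replicate 2, and 3 without Brg1sh_3364 replicate 1, Brg1sh_4935 replicate 1, Rluc replicate 1 or Rluc replicate 3. Mx1 was called only without Brg1sh_3232 replicate 1 or Rluc replicate 2, with adjusted p of 0.0819 to 0.145 in the other 7 fits. Cmpk2 was called only without Brg1sh_3232 replicate 2 or Rluc replicate 3 (0.0559 to 0.148 in the other 7), and Trim25 only without Brg1sh_3232 replicate 2 or Rluc replicate 2 (0.0534 to 0.148). Samd9l was not called without replicate 2 of Brg1sh_3232 or Brg1sh_3364, either Brg1sh_4935 array or Rluc replicate 3 (0.0708 to 0.0851), nor Gbp3 without Brg1sh_3232 replicate 1, Brg1sh_3364 replicate 2, Brg1sh_4935 replicate 2 or Rluc replicate 3 (0.0578 to 0.0652).

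**Figure D1:**
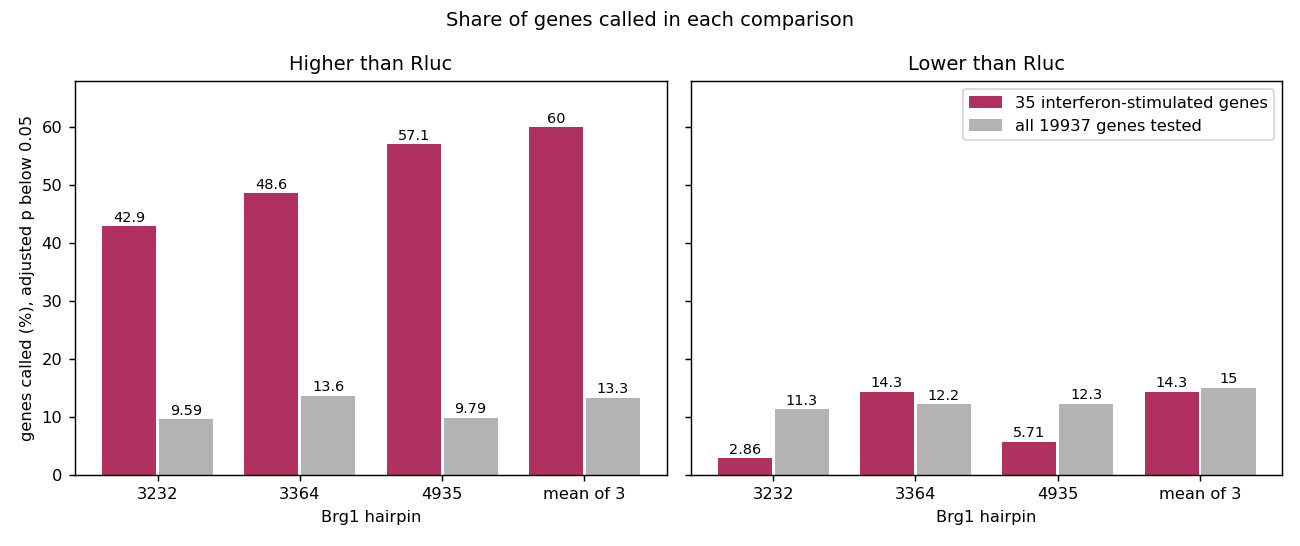
Bars give the percentage of genes called higher (left) or lower (right) than Rluc at an adjusted p below 0.05, for each Brg1 hairpin and for the mean of the 3; red bars are the 35 interferon-stimulated genes and grey bars all 19937 genes tested. The share of members that rose was 60% for the mean of the 3 hairpins, against 13.3% of all genes, while the shares that fell were 14.3% and 15%.

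Promoters of the members were searched for short motifs. Of the 35 measured members, 26 had an entry in the RefSeq promoter table (assembly GRCm38.p6), which covers 250 bases before to 50 after each start. The letters GAAA, any 2 bases and GAAA again, on either strand, stand for the core of an ISRE, and TTCNNNGAA, which reads the same on both strands, for a GAS element of the kind STAT dimers bind. An ISRE-like match lay in a window of 12 of these 26 members (46.2%), against 3.99% of all 27025 genes in the table, and a GAS-like match in 8 of 26 (30.8%), against 9.55%. Of the 26, ISRE-like matches were held by 6 of 14 members that rose, 2 of 5 that fell and 4 of 7 that were not called. A match is a description of letters and not of a bound site.

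The 250 bases before the start are shown, 5′ to 3′, for the 3 members with the largest rises that had an entry and for the member with the largest fall, with motif matches in capitals. Ifit3 (chr19:34583279-34583528, plus strand) rose and has ISRE-like matches at -156 to -147 and -122 to -113 from its start, both read on the minus strand. Stat2 (chr10:128270248-128270497, plus strand) rose and has 1 at -222 to -213. Ifnar1 (chr16:91484965-91485214, plus strand) rose and has no whole match within these 250 bases. Its GAS-like match, at -5 to 3, runs past the printed bases and is not in capitals. Ifit2 (chr19:34550444-34550693, plus strand, the first of its 2 entries) fell and has a GAS-like match at -241 to -233.
Ifit3: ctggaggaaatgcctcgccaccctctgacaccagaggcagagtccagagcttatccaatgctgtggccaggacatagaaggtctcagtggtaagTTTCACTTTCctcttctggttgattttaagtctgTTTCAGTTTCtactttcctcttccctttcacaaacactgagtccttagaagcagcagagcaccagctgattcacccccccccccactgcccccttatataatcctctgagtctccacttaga
Stat2: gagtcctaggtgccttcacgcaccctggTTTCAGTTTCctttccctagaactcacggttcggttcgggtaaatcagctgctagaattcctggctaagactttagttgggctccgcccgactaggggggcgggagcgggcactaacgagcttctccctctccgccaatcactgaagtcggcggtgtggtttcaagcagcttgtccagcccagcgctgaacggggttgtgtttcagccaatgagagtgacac
Ifnar1: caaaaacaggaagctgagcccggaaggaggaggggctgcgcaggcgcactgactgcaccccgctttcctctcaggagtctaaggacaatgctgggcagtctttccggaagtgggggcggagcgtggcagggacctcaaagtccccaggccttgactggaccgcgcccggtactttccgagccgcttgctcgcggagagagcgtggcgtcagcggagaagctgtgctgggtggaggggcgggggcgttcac
Ifit2: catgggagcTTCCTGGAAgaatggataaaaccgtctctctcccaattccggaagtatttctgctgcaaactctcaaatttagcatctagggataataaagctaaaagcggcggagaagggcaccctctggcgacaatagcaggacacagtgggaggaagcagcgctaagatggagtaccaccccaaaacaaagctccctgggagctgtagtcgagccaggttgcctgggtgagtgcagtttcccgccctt

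Among the receptor chains, the signal transducer and the regulators of signalling, 4 of 6 measured members rose and 2 fell. Usp18, the protease that removes the ISG15 modifier and blocks the receptor, had the largest change of any member. Its log2 expression was 9.50 and 9.83 with Brg1sh_3232, 9.25 and 9.09 with Brg1sh_3364 and 10.45 and 10.56 with Brg1sh_4935, against 7.73, 7.88 and 8.03 with Rluc. Every Brg1 hairpin array lay above every Rluc array, and the groups did not overlap. Usp18 was 3.73-fold higher over the mean of the 3 hairpins (95% interval 3.26 to 4.28), a log2 rise of 1.90 (SE 0.09, adjusted p = 1.47e-06). Brg1sh_3232 gave a fold of 3.45 (95% interval 2.89 to 4.11). For Brg1sh_3364 the fold was 2.44 (2.05 to 2.91), and for Brg1sh_4935 it was 6.17 (5.17 to 7.36).

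Both receptor chains rose. Ifnar1 was at 11.62 and 11.65 with Brg1sh_3232, 11.52 and 11.41 with Brg1sh_3364 and 11.82 and 11.80 with Brg1sh_4935, against 11.02, 11.02 and 11.08 with Rluc. No array of the Brg1 hairpins overlapped the controls, and the log2 rise was 0.60 (SE 0.04, adjusted p = 7.76e-06). Ifnar2, the chain that carries the Usp18 docking site, was at 12.85 and 12.84 with Brg1sh_3232, 12.79 and 12.79 with Brg1sh_3364 and 12.96 and 12.90 with Brg1sh_4935, against 12.65, 12.68 and 12.57 with Rluc. Its groups were apart too, with a smaller rise of 0.22 (SE 0.04, adjusted p = 0.0019). Stat2 was at 10.55 and 10.67 with Brg1sh_3232, 10.76 and 10.67 with Brg1sh_3364 and 10.68 and 10.58 with Brg1sh_4935, against 10.12, 10.15 and 9.93 with Rluc. All Brg1 hairpin arrays lay above the controls. Those of Brg1sh_4935 overlapped both other hairpins, which did not overlap each other. The rise was 0.58 (SE 0.06, adjusted p = 0.000101).

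The ubiquitin ligase genes of the signalling group fell. Trim30a, an inhibitor of Toll-like receptor signalling in mouse, was at 11.36 and 11.52 with Brg1sh_3232, 10.98 and 10.90 with Brg1sh_3364 and 11.70 and 11.77 with Brg1sh_4935, against 11.53, 11.64 and 11.66 with Rluc. The Brg1sh_3364 arrays stood well below the controls, those of Brg1sh_3232 just below and those of Brg1sh_4935 above them. Over the mean of the 3 hairpins Trim30a fell by 0.24 (SE 0.05, adjusted p = 0.00592), and without Brg1sh_3364 its log2 change was -0.02 (adjusted p = 0.842). Trim25, which modifies the sensor RIG-I, fell by 0.14 (SE 0.04, adjusted p = 0.041), with log2 changes of -0.11 with Brg1sh_3232, -0.21 with Brg1sh_3364 and -0.11 with Brg1sh_4935.

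Of 4 sensors of viral nucleic acid, 3 rose and none fell. Dhx58, the RIG-I-like helicase LGP2, was at 10.34 and 10.64 with Brg1sh_3232, 10.32 and 10.29 with Brg1sh_3364 and 10.64 and 10.54 with Brg1sh_4935, against 9.86, 9.98 and 9.82 with Rluc. Its groups did not overlap, and it rose by 0.57 (SE 0.07, adjusted p = 0.000228). Ifih1, which encodes the double-stranded RNA sensor MDA5, was at 9.93 and 9.88 with Brg1sh_3232, 10.61 and 10.62 with Brg1sh_3364 and 9.94 and 9.85 with Brg1sh_4935, against 9.94, 9.85 and 9.88 with Rluc. The Brg1sh_3364 arrays stood alone, while those of Brg1sh_3232 and Brg1sh_4935 overlapped Rluc. Its log2 changes were 0.73 (SE 0.05, adjusted p = 1.64e-05) with Brg1sh_3364, 0.02 (SE 0.05, adjusted p = 0.875) with Brg1sh_3232 and 0.00 (SE 0.05, adjusted p = 0.988) with Brg1sh_4935. The call over the mean, a rise of 0.25 (SE 0.04, adjusted p = 0.0011), was lost without Brg1sh_3364 (log2 change 0.01, adjusted p = 0.911). Zbp1, a sensor of Z-form nucleic acid, rose by 0.23 (SE 0.04, adjusted p = 0.00292). Ddx58, which encodes RIG-I, differed from Rluc by -0.02 (SE 0.04, adjusted p = 0.743).

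The IFIT family, RNA-binding proteins that block translation of viral RNA, split in direction, and Ifit2 and Ifit3, with no protein-coding gene between them in the RefSeq table, moved in opposite ways. Ifit3 was at 6.91 and 7.08 with Brg1sh_3232, 6.68 and 6.62 with Brg1sh_3364 and 6.89 and 7.17 with Brg1sh_4935, against 6.17, 6.37 and 6.21 with Rluc. All Brg1 hairpin arrays were above the controls, and the rise was 0.64 (SE 0.07, adjusted p = 0.000202). Ifit1, which binds viral RNA caps, was at 6.37 and 6.36 with Brg1sh_3232, 6.50 and 6.37 with Brg1sh_3364 and 6.77 and 6.71 with Brg1sh_4935, against 6.05, 5.99 and 6.26 with Rluc. It rose by 0.41 (SE 0.06, adjusted p = 0.000908), also without overlap, though with the hairpin means taken as replicates it was not called (adjusted p = 0.0636). Ifit2 was at 8.45 and 8.42 with Brg1sh_3232, 8.43 and 8.12 with Brg1sh_3364 and 8.19 and 8.30 with Brg1sh_4935, against 9.09, 8.99 and 8.93 with Rluc. Each of the 6 Brg1 hairpin arrays lay below the lowest control. Ifit2 fell by 0.68 (SE 0.07, adjusted p = 9.45e-05) and was 1.61-fold lower than with Rluc (95% interval 1.44 to 1.79).

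Of the 4 measured genes for oligoadenylate synthetases and their relatives, a family whose catalytic members make the activator of RNase L, 2 rose. Oasl2 was at 7.26 and 7.24 with Brg1sh_3232, 7.24 and 7.21 with Brg1sh_3364 and 7.86 and 7.79 with Brg1sh_4935, against 7.07, 7.09 and 7.00 with Rluc. Brg1sh_4935 stood above the other hairpins, whose arrays lay just above the controls. Its rise of 0.38 (SE 0.04, adjusted p = 8.15e-05) was not called once the hairpin means were taken as replicates (adjusted p = 0.187). Oas3 rose by 0.17 (SE 0.04, adjusted p = 0.00598). The log2 changes of Oasl1, next to Oasl2, and of Oas2, next to Oas3, were 0.05 (SE 0.04, adjusted p = 0.446) and -0.03 (SE 0.08, adjusted p = 0.863).

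Among 9 other antiviral effectors 5 rose and 1 fell. Adar, the RNA-editing enzyme that marks self RNA, rose by 0.35 (SE 0.04, adjusted p = 0.000381), with log2 changes of 0.36 with Brg1sh_3232, 0.42 with Brg1sh_3364 and 0.28 with Brg1sh_4935. Mx1 and Mx2, dynamin-like GTPases that RefSeq lists as transcribed pseudogenes in the C57BL/6J reference, rose by 0.41 (SE 0.13, adjusted p = 0.0438) and 0.38 (SE 0.08, adjusted p = 0.0053). Rsad2, the antiviral enzyme viperin, rose by 0.28 (SE 0.05, adjusted p = 0.00418), and without Brg1sh_4935 its log2 change was 0.12 (adjusted p = 0.158). Samd9l, an antiviral and growth-restraining factor, rose by 0.34 (SE 0.10, adjusted p = 0.0291), with log2 changes of -0.14 with Brg1sh_3232, 0.98 with Brg1sh_3364 and 0.18 with Brg1sh_4935. Without Brg1sh_3364 the log2 change of Samd9l was 0.02 (adjusted p = 0.921).

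Cmpk2, a mitochondrial nucleotide kinase whose gene lies next to Rsad2, moved the other way. It was at 9.21 and 9.41 with Brg1sh_3232, 9.56 and 9.46 with Brg1sh_3364 and 9.19 and 9.11 with Brg1sh_4935, against 9.59, 9.71 and 9.40 with Rluc. The Brg1sh_4935 arrays lay below all controls, whereas those of Brg1sh_3364 were within the range of Rluc. Cmpk2 fell by 0.24 (SE 0.07, adjusted p = 0.0342) over the mean. The log2 changes of the exonuclease gene Isg20, of Eif2ak2, which encodes the translation-blocking kinase PKR, and of Bst2, which encodes the virus tether tetherin, were 0.15 (SE 0.06, adjusted p = 0.093), 0.03 (SE 0.04, adjusted p = 0.634) and -0.05 (SE 0.07, adjusted p = 0.716). With Brg1sh_3364, Isg20 rose by 0.27 (SE 0.07, adjusted p = 0.0248) and Bst2 fell by 0.38 (SE 0.10, adjusted p = 0.0175). Neither was called without Brg1sh_3364 replicate 1 (adjusted p = 0.113 and 0.0521) or replicate 2 (0.115 and 0.135).

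Of the interferon-inducible GTPases, which attack the vacuoles of intracellular pathogens, 2 of 4 were measured and 1 fell. Gbp3 was at 8.75 and 8.87 with Brg1sh_3232, 8.18 and 7.95 with Brg1sh_3364 and 8.87 and 8.69 with Brg1sh_4935, against 8.75, 8.82 and 9.15 with Rluc. Only Brg1sh_3364 was below the controls, and the other hairpins overlapped them. Gbp3 fell by 0.35 (SE 0.09, adjusted p = 0.0207) over the mean, but without Brg1sh_3364 its log2 change was -0.11 (adjusted p = 0.531). Irgm1 differed from Rluc by 0.09 (SE 0.05, adjusted p = 0.21) over the mean and rose by 0.26 (SE 0.06, adjusted p = 0.0162) with Brg1sh_4935, a call lost without Brg1sh_4935 replicate 1, Brg1sh_4935 replicate 2 or Rluc replicate 2 (adjusted p = 0.0854, 0.104 and 0.0519).

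In the remaining group 5 of 7 measured members rose and none fell. Rtp4, a chaperone of membrane receptors, was at 6.51 and 6.52 with Brg1sh_3232, 6.84 and 6.47 with Brg1sh_3364 and 7.03 and 7.29 with Brg1sh_4935, against 6.08, 6.10 and 6.29 with Rluc. Its groups did not overlap, with a rise of 0.62 (SE 0.09, adjusted p = 0.000859). Xaf1, a partner of the apoptosis inhibitor XIAP, was at 7.49 and 7.89 with Brg1sh_3232, 7.09 and 7.19 with Brg1sh_3364 and 7.79 and 7.86 with Brg1sh_4935, against 6.95, 6.96 and 7.00 with Rluc. It rose by 0.58 (SE 0.08, adjusted p = 0.000543), with Brg1sh_3364 closest to the controls. Taking the hairpin means as replicates removed the calls of Rtp4 (adjusted p = 0.0542) and Xaf1 (adjusted p = 0.0694). Parp9 rose by 0.33 (SE 0.04, adjusted p = 0.000197), while its binding partner and neighbour Dtx3l, a ubiquitin ligase, differed from Rluc by 0.07 (SE 0.05, adjusted p = 0.387), and the nearby ADP-ribosyltransferase gene Parp14 differed by 0.14 (SE 0.07, adjusted p = 0.187). Parp14 rose by 0.43 (SE 0.09, adjusted p = 0.0074) with Brg1sh_4935, a call lost without Brg1sh_4935 replicate 1 (adjusted p = 0.0794), and its log2 change was -0.23 (SE 0.09, adjusted p = 0.097) with Brg1sh_3364. Sp100, of nuclear bodies, rose by 0.28 (SE 0.04, adjusted p = 0.000722) and Ifi35 by 0.28 (SE 0.04, adjusted p = 0.000698).

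**Figure D2:**
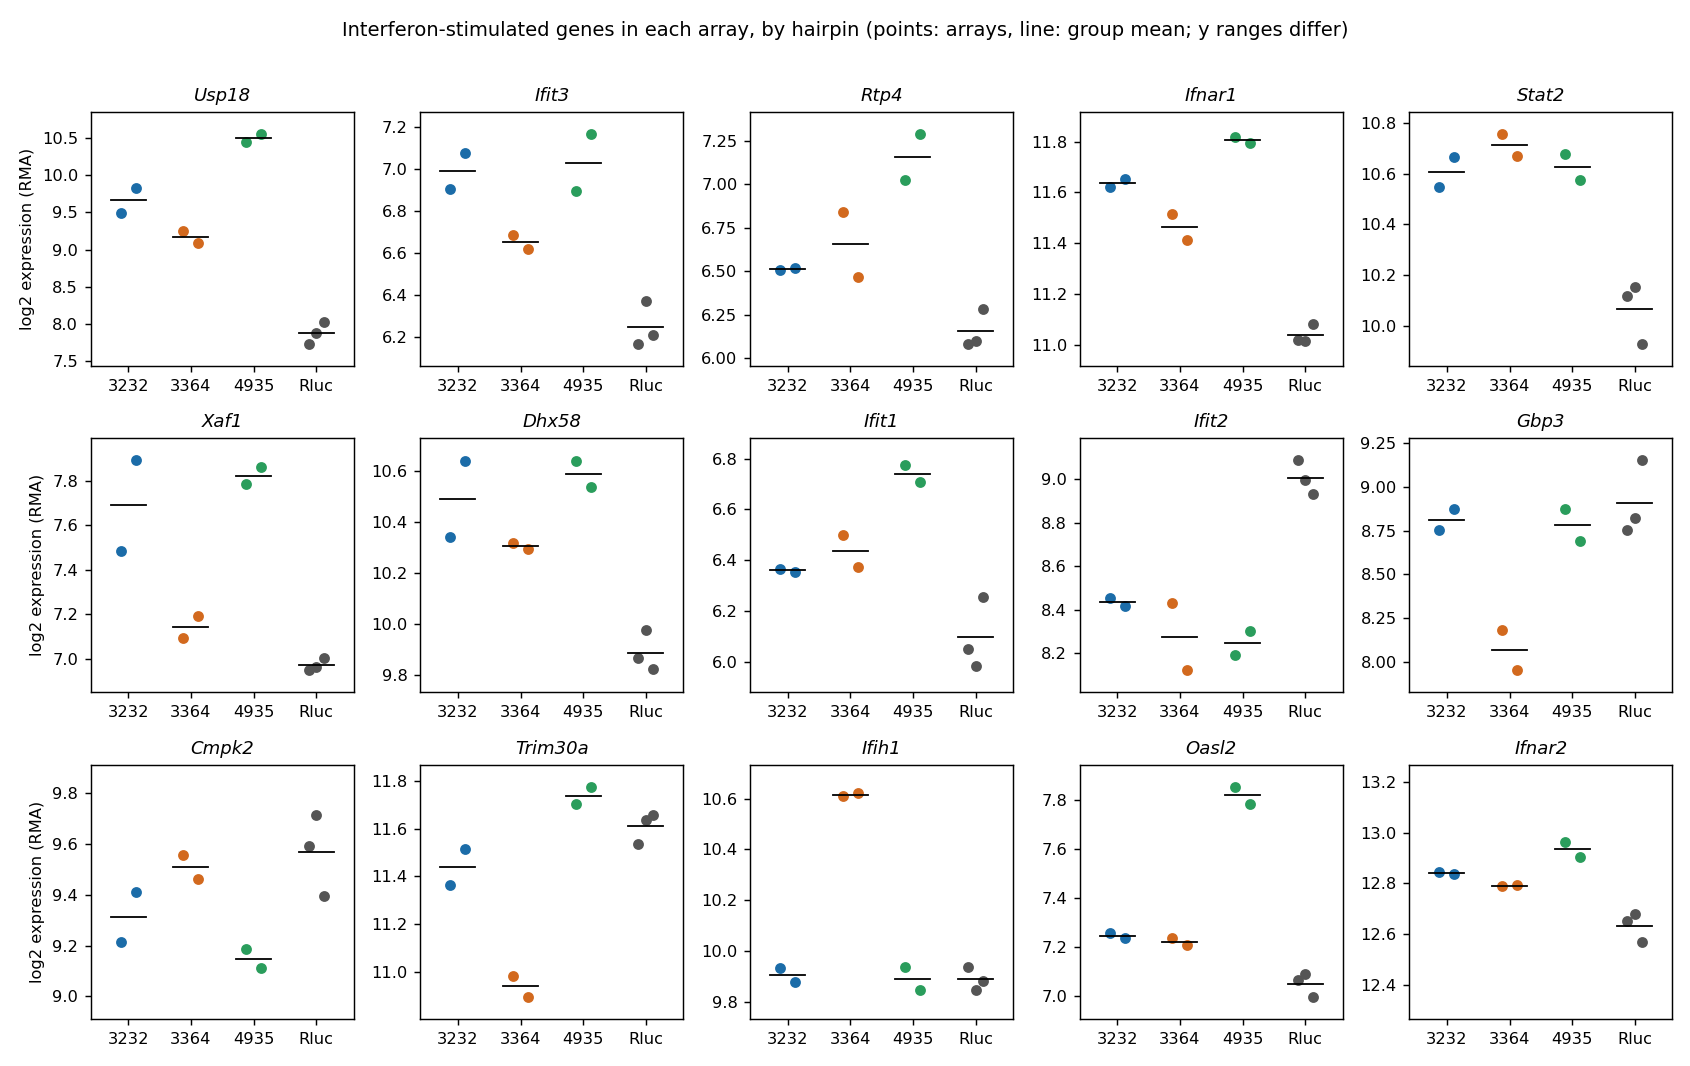
Each panel plots the log2 expression (RMA, y axis, ranges differ between panels) of 1 gene in the 9 arrays, grouped by hairpin on the x axis, with a line at the group mean. The Usp18 points of the 3 Brg1 hairpins sit between 9.09 and 10.56, all above the Rluc points at 7.73 to 8.03, whereas Ifih1 stands apart only with Brg1sh_3364.

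**Figure D3:**
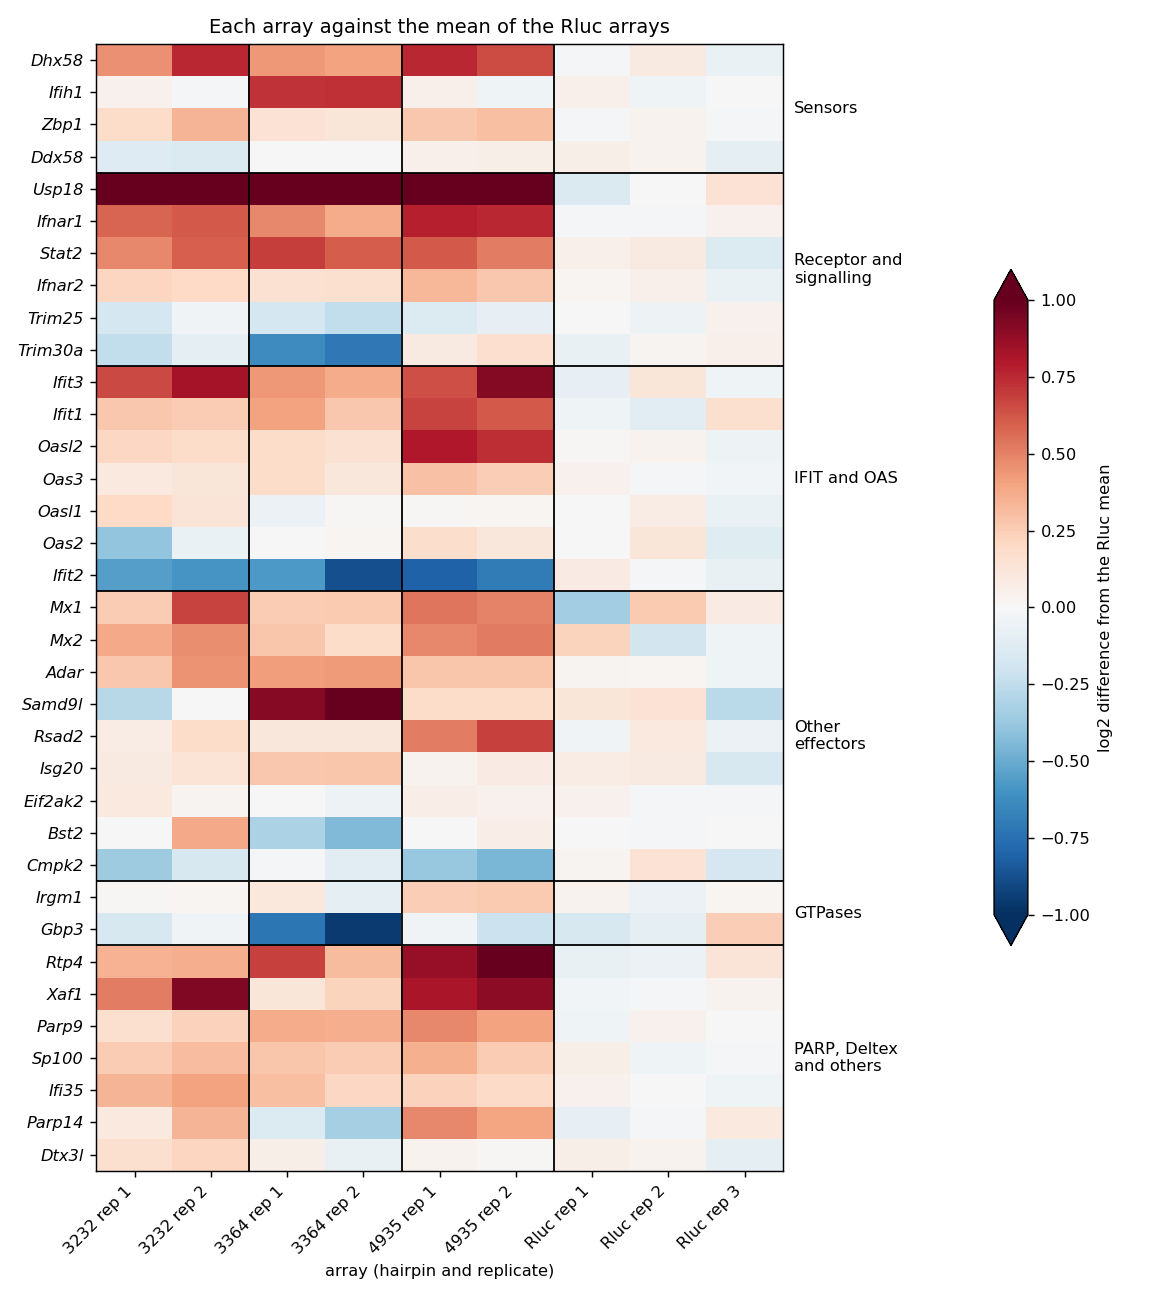
Colour gives the log2 difference of each array (columns) from the mean of the 3 Rluc arrays for the 35 members (rows), grouped by role; the scale ends at 1 either way, which Usp18 passes in all 6 Brg1 hairpin arrays. Over the mean of the 3 hairpins, called rises outnumber called falls in every group but the GTPases. Ifit2 is a blue row across all 6 Brg1 hairpin arrays.

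Each hairpin was also set against Rluc on its own, with the same 3 control arrays in all of these comparisons. With Brg1sh_3232, 15 of 35 members rose (9.59% of all genes did) and 1 fell (11.3%). The largest rises were those of Usp18, at 1.79 (SE 0.11, adjusted p = 2.23e-05), Ifit3, at 0.74 (SE 0.09, adjusted p = 0.00074), Xaf1, at 0.72 (SE 0.10, adjusted p = 0.00128), and Dhx58, at 0.60 (SE 0.09, adjusted p = 0.00139), and Ifit2 fell by 0.57 (SE 0.09, adjusted p = 0.00216). Without Brg1sh_3232 replicate 2, 9 members rose and 2 fell, and without Rluc replicate 3, 3 fell. The fit with the replicate number as a block also gave 3 falls. Rluc replicate 3 is alone in its block there and adds nothing to the change, so this is no separate check.

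With Brg1sh_3364, 17 of 35 members rose (13.6% of all genes) and 5 fell (12.2%). Usp18 rose by 1.29 (SE 0.11, adjusted p = 5.79e-05), Samd9l by 0.98 (SE 0.13, adjusted p = 0.000548), Ifih1 by 0.73 (SE 0.05, adjusted p = 1.64e-05) and Stat2 by 0.65 (SE 0.08, adjusted p = 0.00031). Gbp3 fell by 0.84 (SE 0.12, adjusted p = 0.00103), Ifit2 by 0.73 (SE 0.09, adjusted p = 0.00037) and Trim30a by 0.67 (SE 0.06, adjusted p = 9.77e-05). Without Brg1sh_3364 replicate 1 the counts were 8 and 3, and without replicate 2 there were 3 falls.

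With Brg1sh_4935, 20 of 35 members rose (9.79% of all genes) and 2 fell (12.3%). Usp18 rose by 2.63 (SE 0.11, adjusted p = 2.15e-06), Rtp4 by 1.00 (SE 0.12, adjusted p = 0.000357), Xaf1 by 0.85 (SE 0.10, adjusted p = 0.000389) and Ifit3 by 0.78 (SE 0.09, adjusted p = 0.000431). Ifit2 fell by 0.76 (SE 0.09, adjusted p = 0.000351) and Cmpk2 by 0.42 (SE 0.09, adjusted p = 0.0115), the second of which lost its call without either Brg1sh_4935 array, leaving 1 fall. Across the comparisons, 12 members rose with all 3 hairpins (6.1% of all genes did) and 1, Ifit2, fell with all 3 (6.14%). Of these 12, Ifit1 with Brg1sh_3232 lost its call in 8 of the 9 fits that each left out 1 array. Ifnar2 with Brg1sh_3364 also lost its call in 8, and Oasl2 in 2 with Brg1sh_3232 and 3 with Brg1sh_3364. Others of the 12 lost a call in fewer fits or in none. A further 5 rose with 2 hairpins and 6 with 1, 5 fell with 1, and 6 were called with none. No member was called up with one hairpin and down with another. For these further patterns the share of all genes was not computed, so they are not read as particular to the members.

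**Figure D4:**
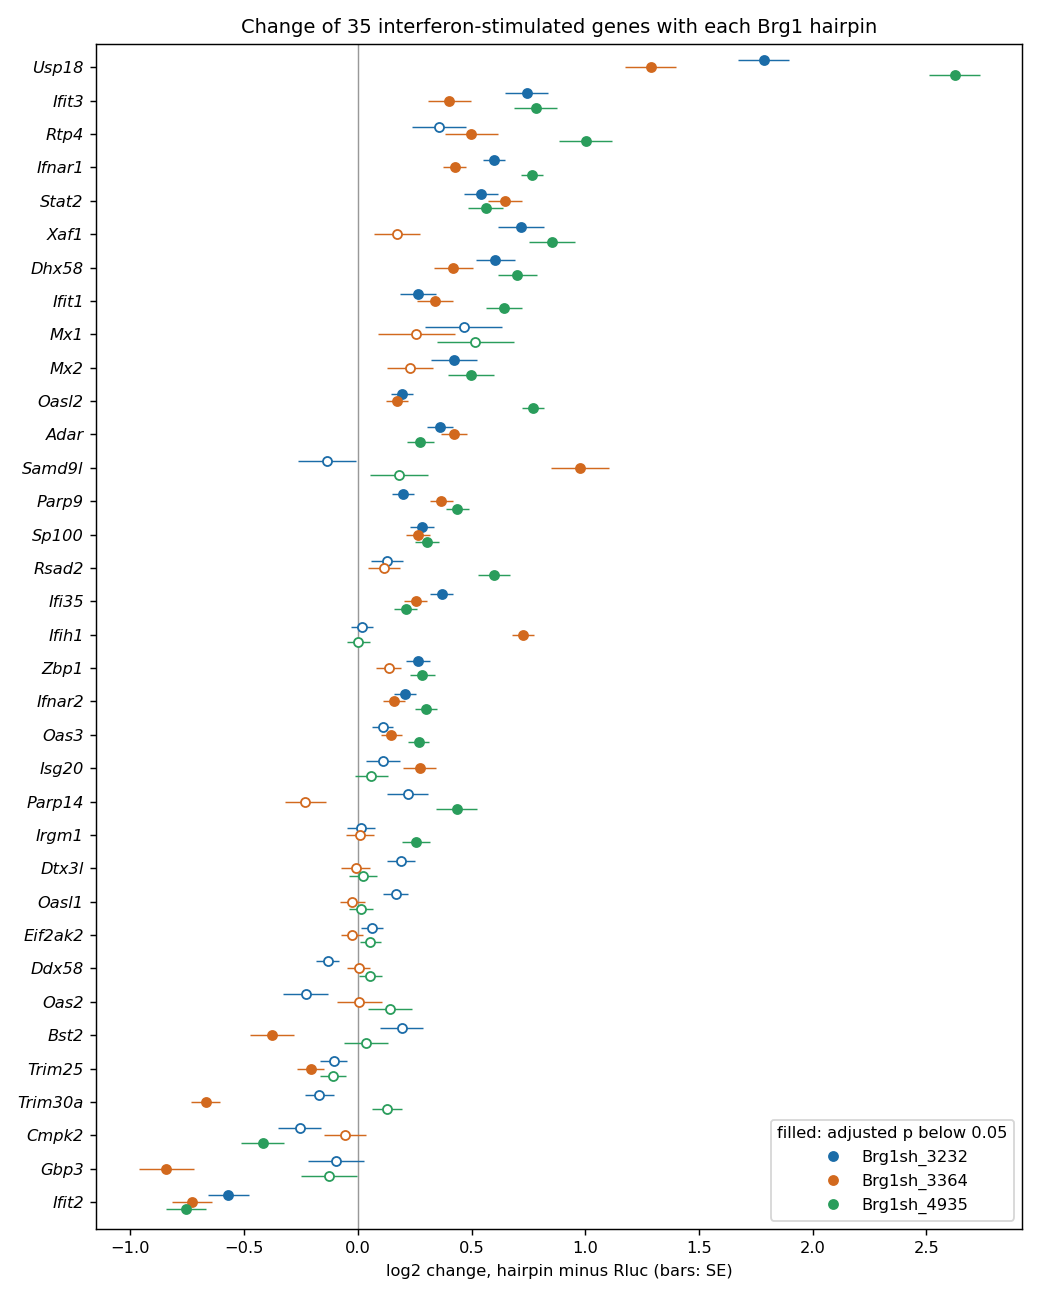
The x axis gives the log2 change of each Brg1 hairpin against Rluc with its SE, the rows are the 35 members in order of the mean of the 3 hairpins, and filled points have an adjusted p below 0.05. Brg1sh_4935 gives the rightmost point for 21 of 35 members and Brg1sh_3364 the leftmost for 21. These orders were counted whether or not the hairpins differed by the F test, and their shares over all genes were not computed.

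The hairpins differed from one another in some members. By limma's moderated F test among the 3 hairpin groups, 14 of 35 members were called, where 10.5% of all genes were. Between Brg1sh_4935 and Brg1sh_3364, 12 members differed (7.61% of all genes), of which 10 were higher with Brg1sh_4935 (3.1%) and 2 lower (4.51%). Between Brg1sh_3364 and Brg1sh_3232, 8 differed (9.66%), with 2 higher (5.81%) and 6 lower (3.84%) under Brg1sh_3364. Between Brg1sh_4935 and Brg1sh_3232, 3 differed (1.02%), all 3 higher with Brg1sh_4935 (0.612%). When 1 array at a time was left out, the last of these calls were lost in 6 of 9 fits for Rsad2, 5 for Usp18 and 1 for Oasl2. The F count was 6 without Brg1sh_3364 replicate 2, 8 without Brg1sh_4935 replicate 1 and 7 without Brg1sh_4935 replicate 2. Brg1sh_4935 gave the highest value of the 3 hairpins in 21 of 35 members, Brg1sh_3232 in 8 and Brg1sh_3364 in 6. This order was counted whether or not the F test called the member. Its share over all genes was not computed, so it is not read as particular to the members.

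The members with the smallest F test p followed different patterns. For Ifih1 the log2 difference of Brg1sh_3364 minus Brg1sh_3232 was 0.71 (SE 0.05, adjusted p = 0.000186), and that of Brg1sh_4935 minus Brg1sh_3364 was -0.72 (SE 0.05, adjusted p = 0.000288). Trim30a was low with Brg1sh_3364, with a difference from Brg1sh_3232 of -0.50 (SE 0.07, adjusted p = 0.00327) and one of Brg1sh_4935 minus Brg1sh_3364 of 0.80 (SE 0.07, adjusted p = 0.000536). Oasl2 was high with Brg1sh_4935, whose difference was 0.57 (SE 0.05, adjusted p = 0.00455) from Brg1sh_3232 and 0.60 (SE 0.05, adjusted p = 0.000536) from Brg1sh_3364. The first of these was not called without Brg1sh_4935 replicate 1 (adjusted p = 0.0714). Usp18 was also highest with Brg1sh_4935, with a difference of 1.34 (SE 0.12, adjusted p = 0.000603) from Brg1sh_3364 that was called without any 1 of the 9 arrays. For Usp18, Brg1sh_4935 minus Brg1sh_3232 was 0.84 (SE 0.12, adjusted p = 0.0197), a call lost in 5 of those 9 fits. Brg1sh_3364 minus Brg1sh_3232 was -0.50 (SE 0.12, adjusted p = 0.0368), a call lost in 6. Stat2, with an F test adjusted p of 0.647, and Sp100, with one of 0.896, were not called as different. For Stat2 the 95% interval of Brg1sh_4935 minus Brg1sh_3364 ran between -0.27 and 0.10.

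The interferon genes themselves were examined next to their targets. Of 15 measured interferons, 0 rose and 0 fell by limma over the mean of the 3 hairpins, and 1, Ifna13, had an unadjusted p below 0.05. With Brg1sh_3364, Ifna13 fell by 0.29 (SE 0.07, adjusted p = 0.0183). Ifnb1, an early type I interferon, averaged 5.89 ± 0.14 (SD, n = 6) with Brg1 hairpins and 5.83 ± 0.07 (SD, n = 3) with Rluc, and Ifng, the type II interferon, 6.93 ± 0.05 and 6.97 ± 0.05. Probe sets of the interferon alpha family can share sequence, so those values are uncertain between members. The Ifnb1 and Ifng averages lay below every array median (7.39 to 7.49). Detection calls were not used, so an unchanged transcript and an undetected one cannot be told apart.

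Of 15 other receptor and JAK-STAT genes 9 rose and 1 fell, where 13.3% of all genes tested rose and 15% fell. Their median log2 change was 0.14. Ifnlr1 and Il10rb, which pair as the receptor of type III interferon, rose by 0.63 (SE 0.05, adjusted p = 1.58e-05) and 0.51 (SE 0.04, adjusted p = 4.16e-05), and the interferon gamma receptor chain Ifngr2 by 0.53 (SE 0.05, adjusted p = 5.49e-05). The ISGF3 subunit gene Irf9 rose by 1.17 (SE 0.05, adjusted p = 6.37e-07), with log2 changes of 1.06 with Brg1sh_3232, 1.05 with Brg1sh_3364 and 1.41 with Brg1sh_4935. Irf7, an amplifier of interferon production, rose by 1.20 (SE 0.06, adjusted p = 2.78e-06) and Irf5 by 1.34 (SE 0.08, adjusted p = 5.96e-06), among 5 rises and 0 falls in 8 measured interferon regulatory factors.

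Of 22 genes of nucleic acid sensing and interferon induction 7 rose and 5 fell, with a median of 0.04. Samhd1, which hydrolyses deoxynucleotides, and the endosomal RNA receptors Tlr8 and Tlr7 rose by 0.47 (SE 0.04, adjusted p = 2.32e-05), 1.17 (SE 0.09, adjusted p = 2.75e-05) and 0.50 (SE 0.05, adjusted p = 0.000116). Of 86 further interferon-stimulated genes 39 rose and 13 fell, with a median of 0.13. The guanylate-binding protein gene Gbp9 and the Schlafen gene Slfn8 rose by 1.54 (SE 0.05, adjusted p = 4.33e-07) and 1.39 (SE 0.07, adjusted p = 3.06e-06), while Nampt, an enzyme of NAD synthesis, fell by 0.77 (SE 0.03, adjusted p = 1e-06). Over all genes tested, 13.3% rose and 15% fell, so the share of these 86 that fell was close to that of all genes, as it was for the 35 members.

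Markers of maturation moved in the same arrays. Of 19 measured macrophage and monocyte markers 13 rose and 1 fell, and the log2 of their summed linear signal lay between 15.10 and 15.46 with Brg1 hairpins and between 14.47 and 14.53 with Rluc. The chemokine receptor gene Cx3cr1, the growth factor receptor gene Csf1r and the protease gene Lgmn rose by 1.92 (SE 0.05, adjusted p = 1.74e-07), 1.06 (SE 0.04, adjusted p = 3.21e-07) and 2.77 (SE 0.11, adjusted p = 5.46e-07). Plasmacytoid dendritic cells, the main interferon producers in blood, had 2 rises and 1 fall in 12 markers, with a summed log2 signal of 13.45 to 13.65 with Brg1 hairpins and 13.50 to 13.56 with Rluc. The called ones were Cd300c, which rose by 0.49 (SE 0.06, adjusted p = 0.000365), Lair1, which rose by 0.22 (SE 0.04, adjusted p = 0.00523), and Cox6a2, which fell by 0.26 (SE 0.05, adjusted p = 0.00465). Their defining gene Siglech averaged 6.72 with Brg1 hairpins and 6.70 with Rluc. Of 14 lymphoid markers 0 rose and 1, Cd79b, fell by 0.77 (SE 0.07, adjusted p = 6.52e-05), with a summed log2 signal of 10.31 to 10.56 with Brg1 hairpins against 10.63 to 10.80 with Rluc. Of 8 epithelial and stromal markers 1, Pdgfrb, rose, by 0.39 (SE 0.05, adjusted p = 0.000668). For comparison, 13.3% of all genes tested rose and 15% fell. The few calls in the plasmacytoid, lymphoid, epithelial and stromal lists are not read as changes in those cells. The part of these markers in the changes of the interferon-stimulated genes was not tested.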

How the data were processed

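RNA of RN2 cells was measured on 9 Affymetrix arrays. The authors deposited log2 expression of each probe set, and the submitters' processing notes name RMA. RMA's version was not given in the sources used here, nor was the genome build. Detection calls were not used here. Of 34760 probe sets, 21640 had 1 symbol in the platform annotation, 1321 several and 11799 none. Entrez identifiers placed 21553 in RefSeq (GRCm38.p6) and altered 0 symbols. For 954 genes on more than 1 probe set, the probe set of highest mean was used, leaving 19937 genes with no filter.

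In R 4.3.3, limma 3.58.1 estimated the 4 group means from all 9 arrays, with 5 residual and 3.85 prior degrees of freedom, and p-values were two-sided and adjusted over all genes (threshold 0.05). The mean contrast weighted the 3 hairpins equally. The fit was tested on simulated data with known changes. Values in every array were given for called members, the 8 that rose most and the 4 that fell most, the 4 smallest F test p, Stat2, Ifnar1 and Ifnar2. Each hairpin comparison named its 4 largest rises and up to 3 falls, and other lists up to 3 genes with the smallest p. Ifnb1, Ifng and Siglech were added after their values were seen. Members and lists were chosen with earlier results of these data known. Motifs were searched with Python 3.11.15.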

Additional observations from a re-analysis of the deposited data

Results flagged for a closer look

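In 14 members the change against Rluc differed among the 3 Brg1 hairpins by the F test, which is why they are listed; the value beside each is its adjusted p. The group that stood apart was Brg1sh_3364, above the other hairpins for Ifih1 and Samd9l and below them for Trim30a, Gbp3 and Bst2: Ifih1 (0.000263), Samd9l (0.00366), Trim30a (0.000933), Gbp3 (0.0122) and Bst2 (0.0194). The highest group was Brg1sh_4935 in Usp18 (0.00104), Oasl2 (0.000495), Rsad2 (0.00696), Rtp4 (0.0262) and Ifit1 (0.0438). It was the highest in Parp14 (0.00787), Xaf1 (0.0105), Ifnar1 (0.0114) and Parp9 (0.0457) as well, with Brg1sh_3364 lowest in the first 3 of these and Brg1sh_3232 lowest in Parp9. When 1 array at a time was left out, 4 of the 14 calls were kept in all 9 fits: Ifih1, Oasl2, Trim30a and Usp18. Parp9 lost its call in 8 of the 9 fits and Ifit1 in 7. The F test covers every gene, and 10.5% of all genes were called by it.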

How the results depend on the processing

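No value of a measured member that was called changed sign in any of the 23 alternatives for the mean of the 3 hairpins or the 18 for each hairpin. Counts of members moved by over 1.5 times as follows. Leaving out genes below the median level removes 11 dim members, among them the dim rises named in the Results. Rises were then 11 for the mean and 11 with Brg1sh_4935. Falls with Brg1sh_3232 were 2, as also with arrays centred on their medians. With every probe set tested, falls were 2 for the mean and 3 with Brg1sh_3364, and 8 members differed among hairpins. At an adjusted p below 0.01, falls were 2 for the mean, 3 with Brg1sh_3364 and 1 with Brg1sh_4935, rises with Brg1sh_3364 were 10 and 7 members differed among hairpins. With the replicate number as a block, falls were 3 for the mean and 3 with Brg1sh_3232. Rluc replicate 3 is alone in its block, so that fit is close to the one without this array. With the 3 hairpin means as replicates, and with a random hairpin block, rises were 11 and falls 1. Without Brg1sh_3364 falls were 2 and without Brg1sh_4935 they were 3. Except where construction shows it (fewer genes or samples, a stricter threshold), the cause was not tested.

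Leaving out 1 array at a time, where a lone array is assumed to vary like the other groups, rises ranged between 19 and 21 for the mean, 9 and 16 with Brg1sh_3232, 8 and 17 with Brg1sh_3364 and 15 and 20 with Brg1sh_4935. Falls ranged between 2 and 5, 1 and 3, 3 and 5, and 1 and 2 in the same order, and members that differed among hairpins between 6 and 15. Same-numbered arrays of Brg1sh_3232 and Rluc deviated together (correlations of 0.19 and 0.25), while those of the other 5 pairs of groups had correlations of -0.07 to 0.03, so the numbers were not taken as pairs. With the replicate number as a block, Brg1sh_3232 had 11 rises and 3 falls, against 15 and 1 without it. The ISRE-like count of 12 members was 15 with the shorter motif GAAANNGAA and 9 within the 250 bases before the start. Centring arrays on their medians gave 36.5% rises among all called genes, against 47.1%, and left 21 rises and 5 falls of members. The number of arrays limits every value.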
